A study of Mus musculus with 9 samples.

Results

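The genes described here encode the ligands, receptors and signal carriers of the TGF-beta and BMP pathway in the mouse aorta. They were chosen by symbol: every gene whose name begins with Tgfb, Ltbp, Bmpr, Acvr or Inhb, or with Smad or Bmp followed by a digit, and that the platform annotation pairs with at least 1 probe set of its own. The rule found 45 of the 18193 genes with a probe set of their own, measured by 105 probe sets. Each gene is represented by its brightest probe set, and the other probe sets of 32 genes served as a check of direction. A single further probe set, shared by Acvr2a and another gene, was left out.

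The aortae came from male mice labelled BMAL-/- (4 arrays: F02, F03, F05 and F08) or BMAL+/+ (5 arrays: F01, F04, F07, F09 and F10), both on a background partially backcrossed onto C57Bl/6J. BMAL1, the product of Arntl, is a transcription factor of the positive arm of the circadian clock. The comparison asks which transcripts differ in the aorta between mice without and with BMAL1 at 1 time of day. All mice of both groups had at least 2 weeks in a cycle of 12 h light and 12 h dark, then at least 30 h of constant darkness, and were killed at ZT14. No age, no allele design and no tissue restriction of the deletion is given, nor whether an array holds the RNA of 1 mouse or of several, and the design text speaks of biological replicates. The aorta was flushed with buffered saline before removal. The labels name the thoracic aorta in one place and a dissection to beyond the femoral bifurcation in another. Total RNA was hybridised to Affymetrix mouse arrays, and the values are log2 expression, on which a difference of 1 is a 2-fold change.

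TGF-beta is secreted in a latent complex in which latent TGF-beta binding proteins, encoded by the Ltbp genes, tether it to the extracellular matrix. Active TGF-beta, BMP and activin ligands bring type II and type I receptor kinases together, which then phosphorylate receptor Smads. These join Smad4 and enter the nucleus, whereas Smad6 and Smad7 restrain the pathway. In the artery wall the pathway is known for its part in smooth muscle differentiation, matrix production and endothelial quiescence.

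The labels were checked first with Arntl, the targeted gene, and with Npas2, a partner of BMAL1, and Nr1d2 (REV-ERB beta), which represses clock genes. Arntl read 5.87, 6.22, 6.05 and 2.77 on F02, F03, F08 and F05, labelled BMAL-/-. On the BMAL+/+ arrays it read 6.67 (F04), 2.76 (F01), 2.79 (F07), 2.82 (F09) and 2.74 (F10). The difference over the labels was 1.67 ± 1.02 (SE), with an exact permutation p of 0.19 (two-sided, smallest possible p 0.00794). Without F04 and F05 it was 3.27, which is given with no test because these arrays were set aside on their clock gene values. F05 lay with the BMAL+/+ arrays and F04 with the BMAL-/- arrays, and Npas2 and Nr1d2 placed both arrays in the same way. For Npas2, F05 had 3.40 where F02, F03 and F08 had 7.90 to 8.52, and F04 had 8.36 where F01, F07, F09 and F10 had 3.37 to 3.40. Arntl was thus higher, not lower, on the arrays labelled BMAL-/- other than F05, and since the position of its probe set relative to the deletion is not stated, it may check nothing. The source name of F01 says BMAL-/- while its title and strain say BMAL+/+, and its clock genes lay with the other BMAL+/+ arrays. All groups below are groups by label, and results are reported with all 9 arrays as labelled and again with the 7 that remain without F04 and F05. Array medians ran from 3.13 to 3.24, 59.6% of probe sets had a mean below 4, and values with a mean below 4 are called near the floor.

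None of the 45 genes passed the test in either comparison. With 9 arrays, 0 of 45 had an adjusted p under 0.05 in limma, as did 0% of the 18193 genes, and the smallest adjusted p among the 45 was 0.37. With 7 arrays the count was again 0 of 45, and the smallest adjusted p was 0.16, that of Bmp4. Of all genes 3 (0.0165%) passed with 7 arrays, namely Arntl, Npas2 and Nr1d2. F04 and F05 were left out on the values of these clock genes, so their passing gives no rate to compare with. This count rests on 1 array: without F08 14 of the 45 genes passed with 7 arrays, as did 16445 of all 45037 probe sets, and with array weights 11 passed, as did 15448 probe sets. The number of arrays limits the precision, and the differences below are measurements with their errors, not calls.

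Of the 45 genes, 33 had a mean of at least 4 and 12 lay near the floor. Among the 33, 10 read higher and 23 lower in BMAL-/- than in BMAL+/+ in both comparisons, with a median difference of -0.08 with 9 arrays and -0.20 with 7. Of all 9699 genes with a mean of at least 4, 4931 read higher and 4768 lower with 9 arrays, and 5072 and 4627 with 7. Their median differences were 0.01 and 0.02. At an unadjusted p under 0.05, 0 of the 33 genes were higher and 1 (Bmp4) lower with 9 arrays, where 0.784% of all genes of that brightness were higher and 1.2% lower. With 7 arrays, 2 (6.06%) were higher, against 7.67% of all genes, and 5 (15.2%) lower, against 7.37%. With 9 arrays the groups overlapped at each of the 33 genes, and they did not overlap at 0.196% of all genes in the higher and 0.278% in the lower direction. With 7 arrays the groups did not overlap at 1 of the 33 genes (3.03%) in the higher direction, against 7.15% of all genes, and at 5 (15.2%) in the lower direction, against 5.66%. The gene higher in BMAL-/- was Acvr1c, and the 5 lower ones were Bmp4, Bmp6, Ltbp4, Tgfbr1 and Acvrl1.

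**Figure D1:**
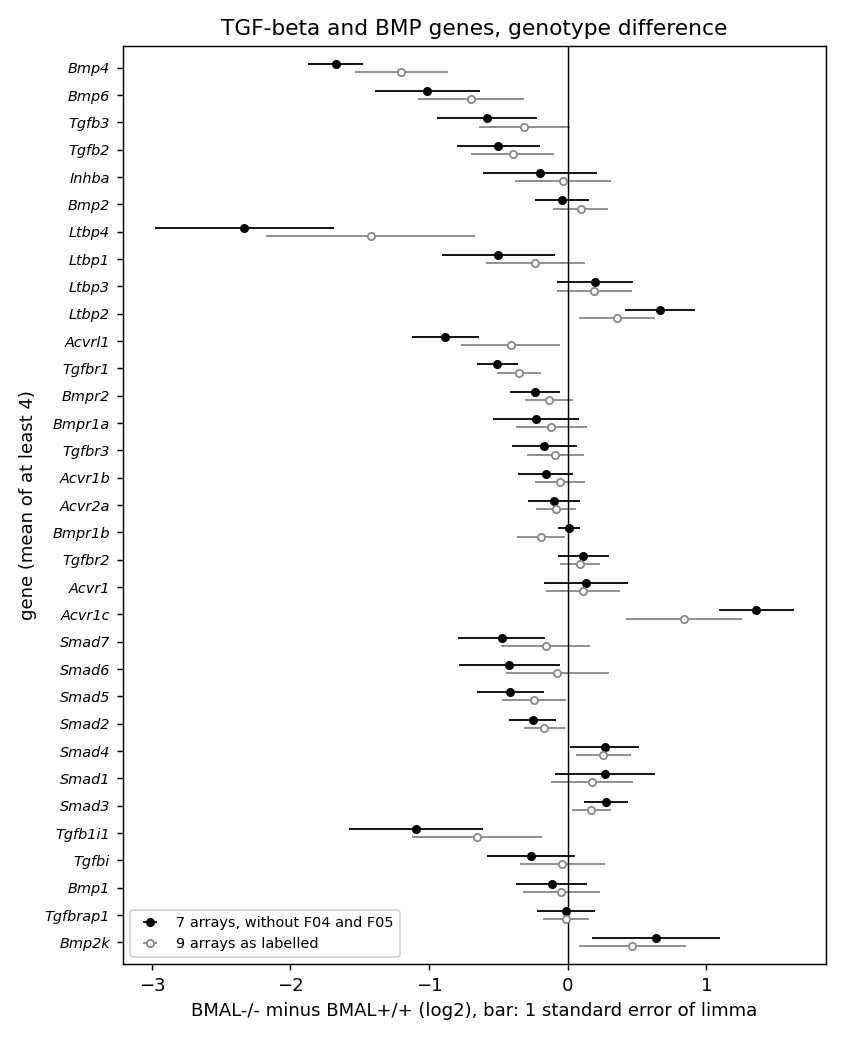
Differences between BMAL-/- and BMAL+/+ (log2, horizontal axis) for the 33 genes with a mean of at least 4, grouped from top to bottom as ligands, latent TGF-beta binding proteins, receptors, Smads and others; filled points are the 7 arrays without F04 and F05, open points the 9 arrays as labelled, bars 1 standard error. Ltbp4 (-2.33) and Bmp4 (-1.67) lie farthest to the left and Acvr1c (1.36) farthest to the right with 7 arrays, and most other genes lie within 1 unit of 0.

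Among the ligands, 6 of 16 had a mean of at least 4: Tgfb2, Tgfb3, Bmp2, Bmp4, Bmp6 and Inhba, the gene of the activin beta A subunit. With 7 arrays all 6 read lower in BMAL-/-, with a median difference of -0.54, and with 9 arrays 5 read lower and Bmp2 higher, with a median of -0.36. The upstream sequences of 3 of them are shown because they hold the letters CACGTG, the E-box that BMAL1 with its partner is known to bind. The sequence of Inhba did not hold these letters, and Bmp2 and Tgfb3 had no sequence to search. The sequences of Bmp4, Bmp6 and Tgfb2 follow. They are the 250 bases before the RefSeq start of transcription on GRCm38.p6, written 5′ to 3′ in the direction of transcription, with CACGTG in capitals.

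Bmp4, chr14:46390670-46390919, minus strand: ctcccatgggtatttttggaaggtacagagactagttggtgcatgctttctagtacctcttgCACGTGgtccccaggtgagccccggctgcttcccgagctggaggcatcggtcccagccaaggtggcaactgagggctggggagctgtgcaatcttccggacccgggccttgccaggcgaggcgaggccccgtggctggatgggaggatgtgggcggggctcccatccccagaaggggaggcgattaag

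Bmp6, chr13:38345466-38345715, plus strand: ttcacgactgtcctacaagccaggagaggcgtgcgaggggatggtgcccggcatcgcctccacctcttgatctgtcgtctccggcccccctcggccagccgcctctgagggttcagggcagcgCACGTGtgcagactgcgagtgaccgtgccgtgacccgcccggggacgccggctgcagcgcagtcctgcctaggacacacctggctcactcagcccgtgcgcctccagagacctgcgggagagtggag

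Tgfb2, chr1:186705990-186706239, minus strand: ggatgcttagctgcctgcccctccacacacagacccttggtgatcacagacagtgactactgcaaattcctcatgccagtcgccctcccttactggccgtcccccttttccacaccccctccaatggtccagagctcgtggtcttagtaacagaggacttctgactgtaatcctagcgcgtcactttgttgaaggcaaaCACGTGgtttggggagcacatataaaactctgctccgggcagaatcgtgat

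The letters begin 188 bases before the start of Bmp4, 127 before that of Bmp6 and 51 before that of Tgfb2. RefSeq windows of 300 bases (250 before to 50 after a start) were matched by gene identifier for 35 of the 45 genes. CACGTG, which reads the same on both strands, was present for 5 of the 35 genes (14.3%), the others being the receptor gene Acvr1b and Tgfbrap1. Over all genes with such windows it was present for 2187 of 27025 (8.09%). A match is a run of letters, and binding was not measured.

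Bmp4, a ligand of the BMP branch, had the smallest p of the 45 genes in both comparisons. It read 5.04, 4.69, 5.26 and 6.31 on the BMAL-/- arrays F02, F03, F08 and F05, and 5.95, 6.85, 6.84, 6.66 and 6.33 on the BMAL+/+ arrays F04, F01, F07, F09 and F10. F05 lay among the BMAL+/+ arrays and F04 was the lowest BMAL+/+ array, so that the groups overlapped as labelled and separated without these 2 arrays. With 9 arrays the BMAL-/- mean of Bmp4 was 5.33 ± 0.70 (SD, n = 4) and the BMAL+/+ mean 6.53 ± 0.38 (SD, n = 5), giving a difference of -1.20 ± 0.34 (SE) that did not pass (adjusted p = 0.37, limma). With 7 arrays the BMAL-/- mean was 5.00 ± 0.29 (SD, n = 3) and the BMAL+/+ mean 6.67 ± 0.24 (SD, n = 4), giving a difference of -1.67 ± 0.20 (SE), or 0.313 times the BMAL+/+ level, at an adjusted p of 0.16.

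Bmp6, a second BMP ligand, had a similar order of arrays. It read 6.32, 6.39, 5.18 and 7.23 on F02, F03, F08 and F05, against 6.98, 7.43, 7.28, 6.67 and 6.52 on F04, F01, F07, F09 and F10. F08 was the lowest array, F05 lay within the BMAL+/+ range, and the gap between F03 and F10 was small. The difference was -0.70 ± 0.38 (SE) with 9 arrays (adjusted p = 0.37) and -1.01 ± 0.38 with 7 (adjusted p = 0.21).

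The TGF-beta ligands differed less. Tgfb2 had differences of -0.40 ± 0.30 (SE, 9 arrays) and -0.50 ± 0.30 (7 arrays), and Tgfb3 of -0.31 ± 0.33 and -0.58 ± 0.36, with overlapping groups in both genes. For both genes F02 and F03 were the lowest of the 9 arrays. Tgfb1, the ligand best known in vessels, lay near the floor: its brightest probe set read between 3.47 and 3.54 on the 4 BMAL-/- arrays, and between 3.51 and 4.63 on the BMAL+/+ arrays, where F10, F09 and F07 were highest. Inhba had differences of -0.03 ± 0.35 and -0.20 ± 0.41, and Bmp2 of 0.09 ± 0.20 and -0.04 ± 0.20.

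**Figure D2:**
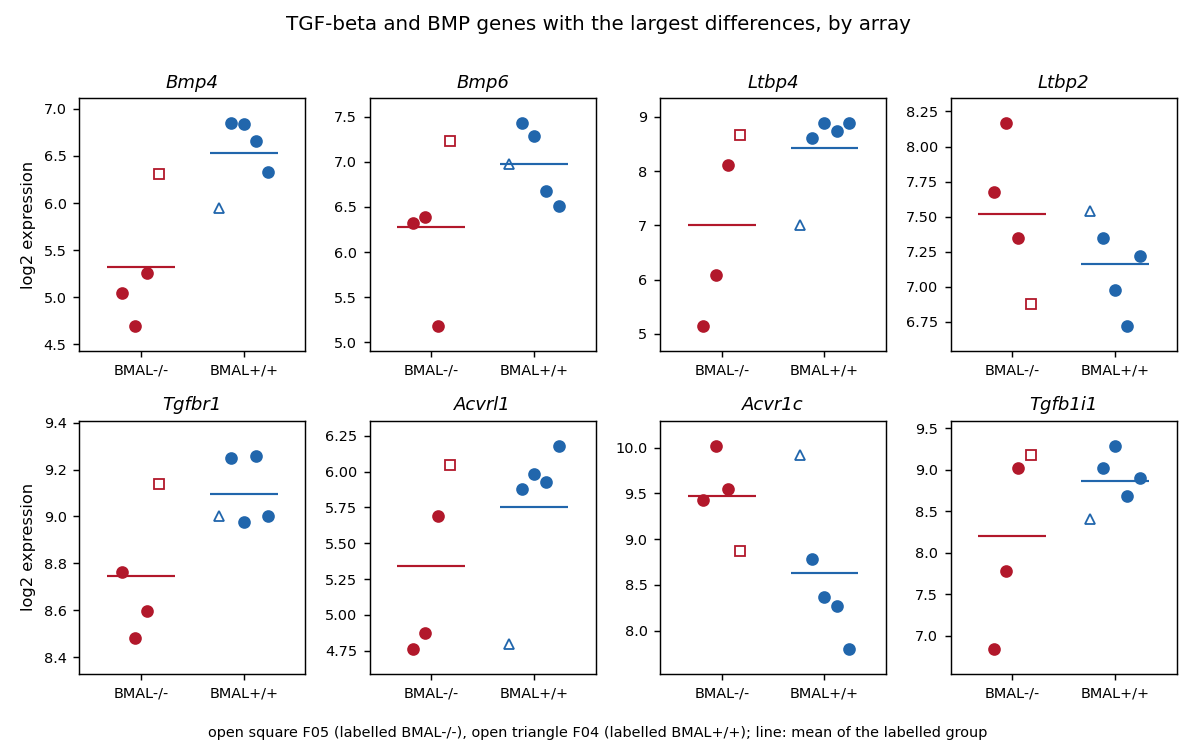
Log2 expression (vertical axis, a separate scale per gene) of 8 genes on each array, BMAL-/- on the left and BMAL+/+ on the right; lines are means of the labelled groups, the open square is F05 and the open triangle F04. Without the open symbols the groups do not overlap for Bmp4, Bmp6, Ltbp4, Tgfbr1, Acvrl1 and Acvr1c, and they overlap or touch for Tgfb1i1 and Ltbp2.

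All 4 genes of latent TGF-beta binding proteins were measured above the floor, and they did not share a direction: Ltbp4 and Ltbp1 read lower in BMAL-/- and Ltbp2 and Ltbp3 higher, in both comparisons. Ltbp4, whose product is known for its part in elastic fibre assembly, had the widest range over the 9 arrays of the 33 genes, 3.75. It read 5.14, 6.09, 8.12 and 8.67 on F02, F03, F08 and F05, against 7.01, 8.61, 8.89, 8.74 and 8.89 on F04, F01, F07, F09 and F10. F02 and F03 carried most of the difference, F08 lay just under the BMAL+/+ arrays other than F04, and F05 lay among them. With 7 arrays the BMAL-/- mean was 6.45 ± 1.52 (SD, n = 3) and the BMAL+/+ mean 8.78 ± 0.14 (SD, n = 4), giving a difference of -2.33 ± 0.65 (SE, adjusted p = 0.21), and with 9 arrays the difference was -1.42 ± 0.75 (adjusted p = 0.37).

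Ltbp2, which binds fibrillin but is not known to hold TGF-beta, read 7.67, 8.17, 7.35 and 6.88 on F02, F03, F08 and F05, and 7.54, 7.35, 6.98, 6.72 and 7.22 on F04, F01, F07, F09 and F10. F03 was the highest array and F08 and F01 met at 7.35. Its difference was 0.36 ± 0.27 (SE, 9 arrays) and 0.67 ± 0.25 (7 arrays, adjusted p = 0.21). Ltbp3, after Tgfbi the brightest of the 45 genes, read 11.07, 11.54, 11.47 and 11.86 on F02, F03, F08 and F05, and 11.81, 11.65, 11.42, 10.61 and 10.98 on F04, F01, F07, F09 and F10, with differences of 0.19 ± 0.27 and 0.20 ± 0.27. The groups overlapped widely, with F09 and F10 among the lowest. Ltbp1 read 9.75, 8.67, 10.52 and 10.29 against 9.63, 10.26, 10.32, 10.07 and 9.93 on the same arrays in the same order. F03 was its lowest array and F08 its highest, both labelled BMAL-/-, and the difference was -0.23 ± 0.36 with 9 arrays and -0.50 ± 0.41 with 7.

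Of 12 receptor genes 11 had a mean of at least 4, all but Acvr2b. With 9 arrays 3 read higher and 8 lower in BMAL-/- (median -0.09), and with 7 arrays 4 and 7 (median -0.16). Tgfbr1, the type I receptor for TGF-beta (ALK5), read 8.76, 8.48, 8.60 and 9.14 on F02, F03, F08 and F05, against 9.0, 9.25, 8.98, 9.26 and 9.0 on F04, F01, F07, F09 and F10. F05 lay within the BMAL+/+ range while F04 lay with its own group, so that only F05 overlapped. Its difference was -0.35 ± 0.16 (SE, 9 arrays, adjusted p = 0.37) and -0.51 ± 0.15 (7 arrays, adjusted p = 0.21), that is 0.704 times the BMAL+/+ level.

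Acvrl1 (ALK1), the type I receptor of endothelial cells for circulating BMPs, read 4.76, 4.87, 5.69 and 6.05 on F02, F03, F08 and F05, against 4.80, 5.88, 5.98, 5.92 and 6.18 on F04, F01, F07, F09 and F10. F04 stood with F02 and F03 at the low end, and F05 stood among the BMAL+/+ arrays. The difference was -0.41 ± 0.36 (SE, adjusted p = 0.51) as labelled and -0.88 ± 0.24 (adjusted p = 0.21) without both arrays. A dimmer probe set of Acvrl1 had the same sign, -0.17 with 9 arrays and -0.34 with 7.

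Acvr1c (ALK7), a type I receptor for activin and nodal ligands that is known from adipose tissue, was the only gene of the 45 with a mean of at least 4 that read higher on each BMAL-/- array than on each BMAL+/+ array of the 7. It read 9.43, 10.02, 9.55 and 8.87 on F02, F03, F08 and F05, and 9.92, 8.78, 8.37, 8.27 and 7.80 on F04, F01, F07, F09 and F10. F04 lay with the BMAL-/- arrays, and F05 lay just above the highest other BMAL+/+ array, F01. With 7 arrays the BMAL-/- mean was 9.67 ± 0.31 (SD, n = 3) and the BMAL+/+ mean 8.31 ± 0.40 (SD, n = 4), giving a difference of 1.36 ± 0.27 (SE), or 2.57 times, at an adjusted p of 0.21, and as labelled the difference was 0.84 ± 0.42 (adjusted p = 0.37). A second bright probe set of Acvr1c, with a mean of 8.05, differed by -0.10 with 7 arrays and -0.18 with 9, the opposite sign, so the probe sets disagree. The mean of the fat markers Adipoq, Fabp4 and Lep ran from 11.3 to 11.8 on the BMAL-/- arrays and from 11.4 to 11.9 on the BMAL+/+ arrays. Its part in the Acvr1c values was not tested.

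The bright receptors differed little between the genotypes on their main probe sets. Bmpr2, the main BMP type II receptor, read 10.12, 10.41, 10.23 and 10.77 on F02, F03, F08 and F05, against 10.62, 10.77, 10.61, 10.41 and 10.16 on F04, F01, F07, F09 and F10. Tgfbr2, the type II receptor for TGF-beta, read 10.37, 9.96, 10.02 and 9.95, against 9.92, 10.28, 10.02, 9.72 and 9.99. The groups overlapped in both genes, and the differences with 7 arrays were -0.24 ± 0.18 (SE) for Bmpr2 and 0.11 ± 0.18 for Tgfbr2.

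Tgfbr3 (betaglycan), a co-receptor that presents TGF-beta 2, read 10.02, 10.32, 10.39 and 10.71 on F02, F03, F08 and F05, against 10.59, 10.86, 10.59, 9.99 and 10.22 on F04, F01, F07, F09 and F10. Bmpr1a (ALK3), a BMP type I receptor, read 9.43, 9.11, 9.89 and 9.92, against 9.71, 10.21, 9.99, 9.18 and 9.43. F01 was the highest and F09 the lowest BMAL+/+ array for both, and the differences with 7 arrays were -0.17 ± 0.24 (SE) for Tgfbr3 and -0.23 ± 0.31 for Bmpr1a. Acvr1, Acvr1b, Acvr2a and Bmpr1b, type I and type II receptors of activins and BMPs, had differences between -0.16 and 0.13 with 7 arrays and between -0.19 and 0.11 with 9. The main probe set of Bmpr1b was close to the floor (mean 4.01), and its other probe sets lay near it and disagreed. The probe set with a mean of 3.84 had -0.62 with 7 arrays and -0.53 with 9, and that with a mean of 2.94 had 0.09 and 0.06.

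**Figure D3:**
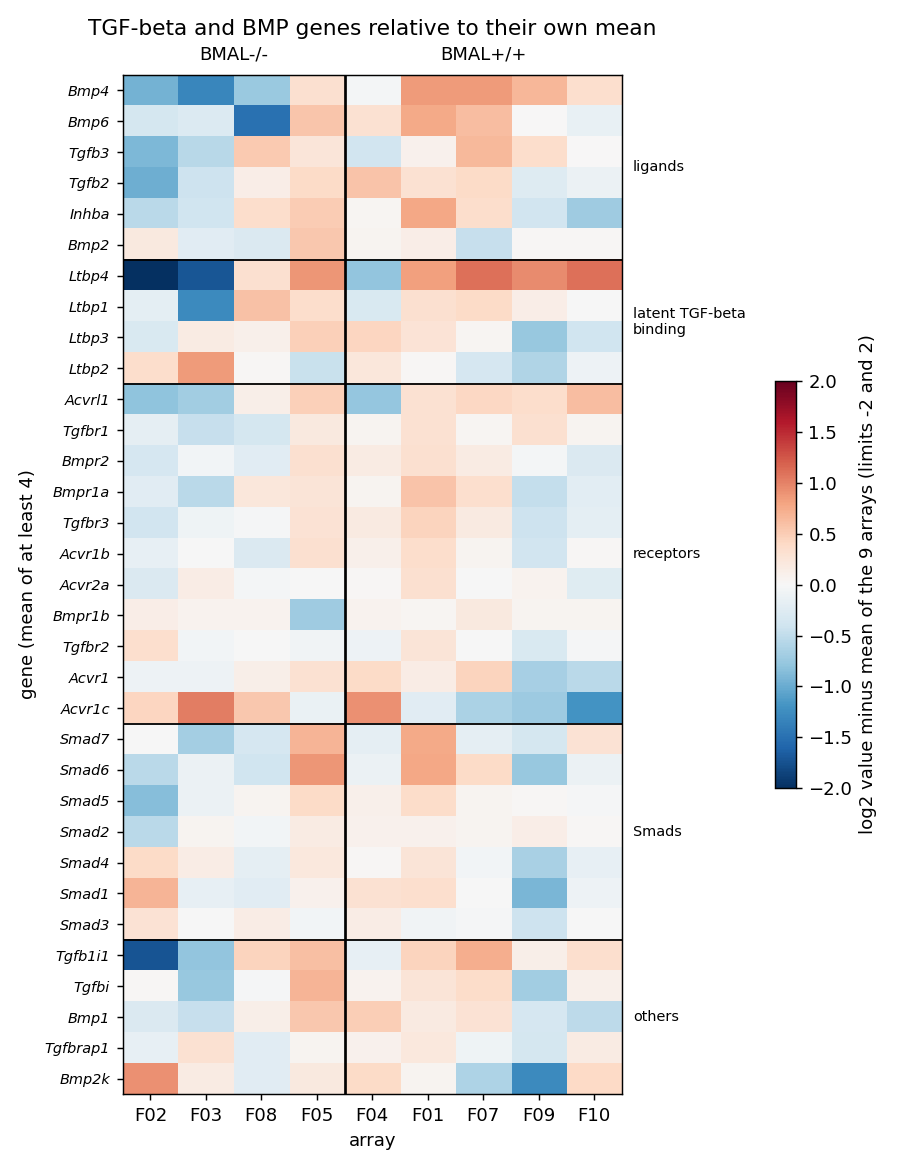
Each of the 33 genes (rows, ordered by role) on each array (columns, BMAL-/- left of the line, BMAL+/+ right), as the log2 value minus the gene's own mean of the 9 arrays, from blue (lower) through white to red (higher), with limits at -2 and 2. The deepest blue lies on F02 and F03 at Ltbp4 and on F02 at Tgfb1i1, F05 is red at most ligands, and Acvr1c is red on F02, F03, F08 and F04.

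Of 8 Smad genes 7 had a mean of at least 4, all but Smad9. With 7 arrays Smad1, Smad3 and Smad4 read higher in BMAL-/- and Smad2, Smad5, Smad6 and Smad7 lower, between -0.48 and 0.27 on their main probe sets. Smad4, the partner shared by the TGF-beta and BMP branches, read 10.22, 9.99, 9.67 and 10.05 on F02, F03, F08 and F05, against 9.87, 10.10, 9.79, 9.19 and 9.68 on F04, F01, F07, F09 and F10. The groups overlapped, with F09 lowest. The difference was 0.26 ± 0.20 (SE) with 9 arrays and 0.27 ± 0.25 with 7, and its other two probe sets had the opposite sign, -0.05 and -0.10 with 7 arrays.

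Smad3, a receptor Smad of the TGF-beta branch, read 6.63, 6.34, 6.49 and 6.29 on F02, F03, F08 and F05, against 6.49, 6.27, 6.32, 5.92 and 6.34 on F04, F01, F07, F09 and F10, a difference of 0.17 ± 0.14 (SE) with 9 arrays and 0.27 ± 0.16 with 7. Smad1, a receptor Smad of the BMP branch, read 9.70, 8.85, 8.78 and 9.10, against 9.32, 9.34, 9.01, 8.10 and 8.91. F02 was highest and F09 lowest for both genes, the groups overlapped or met, and the difference of Smad1 was 0.17 ± 0.30 with 9 arrays and 0.27 ± 0.36 with 7. The inhibitory Smads had negative differences that did not pass: Smad7 had -0.16 ± 0.32 and -0.48 ± 0.31, and Smad6 -0.08 ± 0.37 and -0.42 ± 0.36, with 9 and 7 arrays. A second probe set of Smad7 had -0.59 and -1.02.

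The rule also took in 5 genes named for the pathway that are neither ligand, receptor nor Smad. Tgfb1i1 (Hic-5), a focal adhesion adaptor of smooth muscle, read 6.84, 7.78, 9.02 and 9.18 on F02, F03, F08 and F05, against 8.40, 9.02, 9.29, 8.69 and 8.90 on F04, F01, F07, F09 and F10. F02 and F03 lay below all other arrays, and F08 and F05 lay within the BMAL+/+ range. The difference was -0.66 ± 0.47 (SE, adjusted p = 0.43) with 9 arrays and -1.10 ± 0.49 (adjusted p = 0.21) with 7.

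Tgfbi, a matrix protein named for its induction by TGF-beta, was the brightest of the 45. It read 12.11, 11.33, 12.07 and 12.78 on F02, F03, F08 and F05, against 12.16, 12.35, 12.46, 11.40 and 12.20 on F04, F01, F07, F09 and F10. F03 and F09 were low, 1 in each group, and the difference was -0.04 ± 0.31 (SE) with 9 arrays and -0.26 ± 0.32 with 7. Its other probe sets had the same sign, and 2 dimmer ones, with means of 11.2 and 8.82, had -0.82 and -1.63 with 7 arrays. Bmp2k, a kinase found as a BMP2-inducible transcript, read 8.08, 7.33, 6.95 and 7.37, against 7.57, 7.23, 6.57, 5.90 and 7.58, a difference of 0.47 ± 0.39 with 9 arrays and 0.64 ± 0.46 with 7. F02 was its highest array and F09 its lowest. Bmp1, a procollagen protease and not a BMP ligand, and Tgfbrap1, which binds TGF-beta receptors, had differences of -0.12 ± 0.26 and -0.01 ± 0.21 with 7 arrays. A dimmer probe set of Bmp1 above the floor, with a mean of 4.89, had -0.98 with 7 arrays and -0.46 with 9.

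The 12 genes near the floor were Tgfb1, Inhbb, Inhbc, Inhbe, Bmp5, Bmp7, Bmp8a, Bmp8b, Bmp10, Bmp15, Acvr2b and Smad9. Apart from Tgfb1 and Inhbb, the 10 others had differences between 0.00 and 0.10 with 9 arrays and between 0.01 and 0.14 with 7. With 9 arrays 11 of the 12 read higher in BMAL-/-, as did 7153 of the 8494 genes near the floor, and with 7 arrays 10 of 12 and 7317 of 8494. The values allow no statement on whether these transcripts were present.

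The 2 arrays whose clock genes lay with the other label did not behave alike at the pathway. F05, labelled BMAL-/-, lay nearer to the mean of the BMAL+/+ arrays other than F04 than to that of F02, F03 and F08 at 27 of the 33 genes (81.8%), against 56.1% of the 9699 genes. F04, labelled BMAL+/+, lay nearer to F02, F03 and F08 at 14 of the 33 genes (42.4%), against 68.3% of the 9699 genes. At the 6 genes whose groups did not overlap in the 7 arrays, F05 lay on the BMAL+/+ side at 6 and F04 on the BMAL-/- side at 3. These shares are descriptions, since the genes are not independent.

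The other probe sets gave a mixed check of direction. Of 60, 37 had the sign of the gene's main probe set with 9 arrays and 35 with 7. Of the 25 with a mean of at least 4, which belong to 17 genes, 17 and 15 did so. Besides Acvr1c and Smad4, Ltbp1 was among the genes with another bright probe set of the opposite sign (0.54 with 9 arrays and 0.69 with 7), and so was Ltbp3 (-0.17 and -0.21). Tgfbr2 (-0.22 and -0.36) and Smad2 (0.33 and 0.40) were further such genes. Smad1 had a bright probe set of the opposite sign (-0.29 and -0.37) and another of the same sign (0.14 and 0.20). Bmp4, Bmp6, Ltbp4, Tgfbr1 and Tgfb1i1 had no second probe set with a mean of at least 4.

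The rest of the pathway was followed through 5 lists of genes that the naming rule left out, and no gene of any list passed in either comparison. Of the antagonists and co-receptors, 18 of 19 were measured, and with 7 arrays 9 read higher and 9 lower in BMAL-/-, or 6 and 9 of the 15 with a mean of at least 4. Dcn, the gene of decorin, a matrix proteoglycan that binds TGF-beta, had the smallest adjusted p of all lists, 0.121. It read 11.18, 11.12, 11.51 and 12.61 on F02, F03, F08 and F05, against 11.90, 12.39, 12.56, 12.41 and 12.42 on F04, F01, F07, F09 and F10. As at Bmp4, F04 lay below the other BMAL+/+ arrays and F05 far above the other BMAL-/- arrays, and the difference was -0.73 ± 0.30 (SE) with 9 arrays and -1.17 ± 0.13 with 7. Twsg1, a modulator of BMP binding, had -0.47 ± 0.31 and -0.72 ± 0.34.

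Of the other ligands 9 of 14 were measured, and only Gdf10 had a mean of at least 4. Gdf10 read 7.42, 7.28, 8.64 and 10.23 on F02, F03, F08 and F05, against 8.50, 9.67, 10.04, 9.86 and 9.90 on F04, F01, F07, F09 and F10. F05 was the highest of all arrays and F04 lay among the low ones, and the difference was -1.20 ± 0.62 (SE, adjusted p = 0.37) with 9 arrays and -2.09 ± 0.34 (adjusted p = 0.21) with 7. Among the genes that act in the release of latent TGF-beta, 9 of 11 were measured, and with 7 arrays 7 read higher and 2 lower, or 4 and 2 of the 6 with a mean of at least 4. Mmp9, a matrix protease, had a difference of 0.67 ± 0.19 with 7 arrays and 0.31 ± 0.29 with 9, and Itgb8, an integrin subunit, had -0.50 ± 0.18 and -0.36 ± 0.19.

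All 17 intracellular regulators were measured, 9 higher and 8 lower with 7 arrays, or 8 and 7 of the 15 with a mean of at least 4. Hipk2, a nuclear kinase, had 0.59 ± 0.18 (SE) with 7 arrays and 0.25 ± 0.26 with 9, and Ski, a repressor that binds Smads, had -0.47 ± 0.17 and -0.20 ± 0.22. Of the known transcriptional targets 20 of 21 were measured, 6 higher and 14 lower with 7 arrays (median -0.15), or 5 and 12 of the 17 with a mean of at least 4. Acta2, Tagln and Cnn1, which read lower, and Col1a1, which read higher, are also among the smooth muscle and fibroblast markers below, and of the 16 other targets 5 read higher and 11 lower. Id3, an immediate target of BMP signals, read 6.93, 6.80, 9.26 and 9.01 on F02, F03, F08 and F05, against 6.91, 9.01, 9.79, 10.10 and 9.96 on F04, F01, F07, F09 and F10. F02, F03 and F04 lay together at the low end and F08 lay above F01, so that the groups overlapped in both comparisons, with a difference of -2.05 ± 0.64 (adjusted p = 0.21) with 7 arrays and -1.15 ± 0.80 (adjusted p = 0.42) with 9. Cdkn1a, the gene of the cell cycle inhibitor p21, read 8.61, 9.31, 8.42 and 7.53, against 8.63, 7.41, 7.25, 8.21 and 6.60, with 1.42 ± 0.41 and 0.85 ± 0.47. F03 was highest, and F05 lay with the BMAL+/+ arrays and F04 with the BMAL-/- arrays.

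The values of cell type markers differed between arrays, and some of them ran along with the values above. In RNA from whole tissue, fewer cells of a type and less RNA per cell cannot be told apart. The mean of the 6 smooth muscle markers (Acta2, Tagln, Myh11, Cnn1, Myl9 and Smtn) was 10.9, 10.7, 12.1 and 12.2 on F02, F03, F08 and F05, and 11.3, 12.2, 12.4, 12.1 and 12.1 on F04, F01, F07, F09 and F10. F02 and F03 were the lowest arrays and F04 the next, the order also seen at Tgfb1i1 apart from F02 and F03 changing places. All 6 markers read lower in BMAL-/-, with a median difference of -0.65 with 9 arrays and -1.18 with 7, and none passed.

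The mean of the 6 fibroblast and adventitia markers (Dcn, Dpt, Pi16, Pdgfra, Col1a1 and Lum) was 8.89, 8.43, 9.83 and 10.3 on F02, F03, F08 and F05, and 9.22, 9.98, 10.5, 10.3 and 9.93 on F04, F01, F07, F09 and F10. F03 and F02 were again lowest, and 4 of the 6 markers read lower and 2 higher, with a median of -0.83 with 9 arrays and -1.39 with 7. Dcn is also among the antagonists above. All 6 macrophage markers read lower, with medians of -0.73 and -1.38, and Cd68 was near the floor. The 6 endothelial markers were split, 2 higher and 4 lower in both comparisons, and none passed. Pecam1 had the largest difference, -1.39 ± 0.42 (SE) with 9 arrays and -1.94 ± 0.31 with 7, and Kdr had 0.54 ± 0.37 and 0.98 ± 0.31. The mean of the 6 ran from 6.07 to 6.57 on the BMAL-/- arrays and from 6.40 to 6.80 on the BMAL+/+ arrays, and Tie1 was near the floor.

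**Figure D4:**
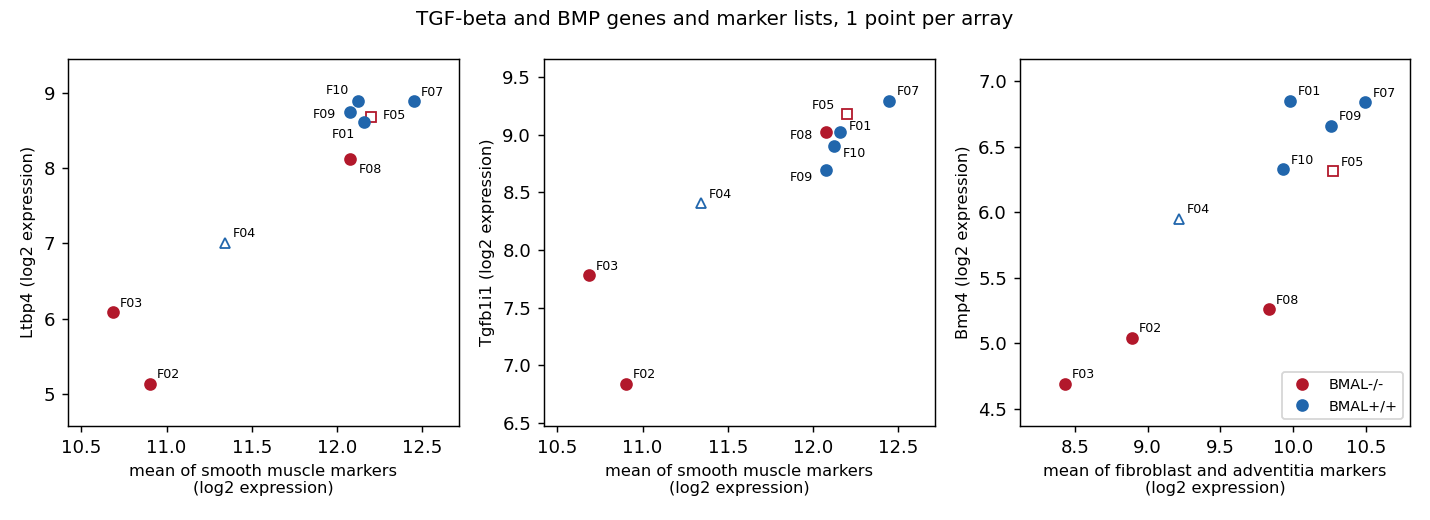
Log2 expression of Ltbp4 and of Tgfb1i1 (vertical axes) against the mean of the smooth muscle markers, and of Bmp4 against the mean of the fibroblast and adventitia markers, 1 labelled point per array; the open square is F05 and the open triangle F04. F02 and F03 are low on both axes in each panel, whereas F08 is nearer to the BMAL+/+ arrays for both marker means and for Tgfb1i1, and lies below them at Ltbp4 (8.12) and Bmp4 (5.26).

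F08 was nearer than F02 and F03 to the BMAL+/+ arrays other than F04 in its smooth muscle and fibroblast means, 12.1 and 9.83. It still lay below each of those arrays at 2 of 6 smooth muscle, 3 of 6 fibroblast (Dcn, Dpt and Pi16), 4 of 6 macrophage, 2 of 6 endothelial and 4 of 4 cardiac markers. Its macrophage mean was 5.62, against 5.78 to 7.24 on those arrays, and its endothelial mean 6.23, against 6.40 to 6.70. On F08 Tgfb1i1 (9.02) lay within their range, Ltbp4 (8.12) below it, and Bmp4 (5.26) and Bmp6 (5.18) at least a full log2 unit below it. What part the sample makeup has in the differences was not tested. The mean of the skeletal muscle markers ranged from 7.05 to 11.4 on the BMAL-/- arrays and from 3.86 to 11.2 on the BMAL+/+ arrays. The mean of the cardiac markers ranged from 5.32 to 9.30 and from 5.75 to 9.82, and that of the brown fat markers from 10.7 to 11.9 and from 10.8 to 13.3. The 2 neuronal markers measured, Th and Dbh, averaged between 3.70 and 7.45 on the BMAL-/- arrays and between 4.59 and 9.52 on the BMAL+/+ arrays. The 3 lymphocyte markers measured, Cd3e, Cd3g and Cd79a, were near the floor on all arrays except F02 (mean 4.61) and F10 (mean 4.91).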

How the data were processed

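The table analysed here gives log2 expression on 9 arrays for 45101 probe sets, as the authors deposited it. GCRMA and MAS5 are named, without role or version, per the submitters' processing notes. The log2 values pile up at a floor and carry no detection flags, and a floor compresses differences of dim transcripts. No further normalization was applied. The array's genome build is not given in the sources.

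After removal of 64 control probe sets, 45037 remained. The platform annotation names 1 gene for 34945, several genes for 932 and has no entry for 9160. Of the single-gene probe sets 34741 were matched to RefSeq symbols of GRCm38.p6, including those of all 45 pathway genes. With limma 3.58.1 in R 4.3.3, a linear model of genotype was fitted to every non-control probe set (lmFit, eBayes with a mean-variance trend). Two-sided p-values were corrected by Benjamini-Hochberg over these 45037 and judged at 0.05. A difference subtracts the BMAL+/+ mean from the BMAL-/- mean (log2), and its error is limma's standard error (SE). The fit was tested on simulated data.

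Values on each array are given for the 10 brightest genes and for up to 5 genes per direction with the smallest p in each comparison among those with a mean of at least 4. Of each further list the 2 genes with the smallest p at that brightness are named. The genes, lists and marker sets were chosen with earlier results of these data known, and so was the removal of F04 and F05. Alternatives tried were array weights, quantile normalization, centring on a common median, eBayes with no trend, a filter on dim probe sets, the design text's one-way ANOVA, F01 counted in BMAL-/-, averaging the probe sets of a gene, and leaving out each array. The closest pair of arrays, F01 and F05, correlated at 0.985 with a mean absolute difference of 0.226, so none was counted as a repeat of another. Plots were drawn with matplotlib 3.10.9.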

Additional observations from a re-analysis of the deposited data

Results flagged for a closer look

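The pathway genes with a mean of at least 4 and the 3 clock genes were searched for arrays far from their labelled group. These 36 genes, in 72 groups, gave 13 cases. The rule is set so that chance gives about 1 in 20 groups when groups are independent. These groups share the same arrays, so the count was not judged against that rate. The clock genes gave 6 of the cases, and F04 and F05 had been set aside on such values. F05 was apart from the other BMAL-/- arrays at Arntl (2.77), Npas2 (3.40) and Nr1d2 (11.2), and F04 was apart from the other BMAL+/+ arrays at Arntl (6.67), Npas2 (8.36) and Nr1d2 (5.81). Nr1d2 read 5.08 to 5.89 on F02, F03 and F08, and 10.4 to 11.7 on F01, F07, F09 and F10.

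Among the pathway genes F04 was far below the other BMAL+/+ arrays at Ltbp4 (7.01, against 8.61 to 8.89) and Acvrl1 (4.80, against 5.88 to 6.18), and F05 below the other BMAL-/- arrays at Bmpr1b (3.30, against 4.09 to 4.15). F07 was the lowest BMAL+/+ array at Bmp2 (4.64) and the highest at Bmpr1b (4.22), a gene close to the floor. F09 was the lowest BMAL+/+ array at Tgfbi (11.4) and F02 the highest BMAL-/- array at Tgfbr2 (10.4).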

How the results depend on the processing

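With 9 arrays, 0 of the 45 genes passed under any alternative run. With 7 arrays 11 passed with array weights, and leaving out 1 array at a time gave 0 to 14, with 14 without F08 and 0 when any other array was left out. Both settings also moved the count over all 45037 probe sets, to 15448 with weights and 16445 without F08, against 4, and Bmp4, Ltbp4, Tgfb1i1, Acvrl1, Acvr1c and Ltbp2 were among the genes passing in both, and the cause was not tested. Of the 19 genes with values on each array, 297 of 323 alternative differences kept the sign and side of the threshold with 9 arrays (26 changed sign, in 9 genes), and 267 of 285 with 7 (6 changed sign, in 5 genes). Bmp4, Bmp6, Ltbp4, Acvrl1, Tgfb1i1 and Acvr1c kept their sign under every alternative run in both comparisons, but with 9 arrays the differences shrank to -0.59 for Bmp4, -0.12 for Bmp6, -0.39 for Ltbp4, -0.036 for Acvrl1, -0.090 for Tgfb1i1 and 0.22 for Acvr1c at the smallest. With 7 arrays the smallest were -1.15, -0.49, -1.68, -0.61, -0.58 and 0.46 in the same order. With 9 arrays the sign turned with array weights for Tgfbi (0.33), Bmpr2 (0.15), Tgfbr3 (0.14), Ltbp1 (0.038), Bmpr1a (0.035), Tgfbr1 (0.010), Tgfbr2 (-0.037), Ltbp2 (-0.059) and the median of the 33 brighter genes (0.049), and with F01 in BMAL-/- for Bmpr1a (0.13), Tgfbr3 (0.11), Tgfbi (0.073), Bmpr2 (0.0067) and that median (0.082). It also turned for Tgfbi with quantile normalization (0.011), and when probe sets of a gene were averaged for Ltbp1 (0.11) and Tgfbr2 (-0.021). With 7 arrays it turned with F01 in BMAL-/- for Tgfbr3 (0.13), Bmpr1a (0.13) and the median (0.077), and with averaged probe sets for Ltbp1 (0.085) and Tgfbr2 (-0.049). The causes were not tested. With F01 in BMAL-/- the count of genes lower at an unadjusted p under 0.05 was 0, against 5, with 7 arrays. Leaving out 1 of 9 arrays gave ranges across 0 for Tgfbi (-0.28 to 0.21), Tgfbr3 (-0.20 to 0.024), Bmpr1a (-0.25 to 0.039), Tgfbr2 (-0.0100 to 0.16), Smad1 (-0.036 to 0.28), Ltbp1 (-0.47 to 0.14) and the median (-0.23 to 0.014), and leaving out 1 of 7 for Tgfbr2 (-0.012 to 0.20) and Smad1 (-0.023 to 0.44). The one-way ANOVA called 0 of the 45 genes after adjustment in both comparisons, and 2 lower with 9 arrays at an unadjusted p under 0.05. The Arntl difference was 3.27 without F04 and F05, which were left out on their clock genes. No paired analysis was possible because the 2 groups share no array numbers. Signal over background could not be judged without detection flags.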
